A study of Mus musculus with 6 samples.

Results

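Noncoding small nucleolar RNA (snoRNA) host genes were examined in mouse embryonic hearts that lacked Hdac3 in Isl1-expressing cells. A snoRNA host gene carries snoRNAs in its introns, and the noncoding hosts are those whose spliced transcript encodes no known protein. The members were chosen by symbol from 8 named genes, Gas5, Snhg1, Snhg3, Snhg5, Snhg6, Snhg7, Snhg8 and Snhg12, keeping array rows whose annotation gave exactly 1 gene symbol. By that rule 6 of the 22180 measured genes were members, each with 1 row: Snhg1, Snhg3, Snhg5, Snhg6, Snhg7 and Snhg12. Gas5 and Snhg8 appear only on rows annotated to a further gene as well, so those rows are described apart and are not counted.

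The hearts were C57BL/6 and taken at embryonic day 9.5. The 3 control samples were pools of Hdac3-flox/flox hearts, which carry the floxed alleles and no Cre. The 3 Hdac3-Isl1KO samples were pools with the genotype Hdac3-flox/flox; Isl1-Cre, so all 6 samples share the floxed alleles, and an effect of the Isl1-Cre allele cannot be told apart from loss of Hdac3. Cre is made where Isl1 is active, above all in progenitors of the second heart field, so cells of other origin in the pooled hearts keep Hdac3. Nothing in the labels says how many hearts made a pool or whether pools came from separate litters, so the spread behind each p-value is that of these pools and could be technical in part. The number of arrays limits the precision.

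Host genes of this kind are transcribed by RNA polymerase II. Their introns are cut out by splicing, and the snoRNA is freed by trimming the debranched intron while core proteins bind and protect it. C/D box snoRNAs guide methylation of ribosomal RNA with fibrillarin, and H/ACA box snoRNAs guide conversion of uridine to pseudouridine with dyskerin. The spliced host RNA is often short-lived, because translating ribosomes expose it to nonsense-mediated decay. Many hosts begin with a terminal oligopyrimidine (TOP) tract, a run of C and T bases at the start of transcription that ribosomal protein genes also carry. The steady level of a host RNA and that of its snoRNA therefore depend on different decay steps.

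The sequences around the annotated starts are shown because they hold a feature that the choice of members did not use. RefSeq start windows (build GRCm38.p6) were matched for 7 of the 8 genes, Gas5 having 2 starts, and each window runs from 40 bases before the start to 29 bases after the start base, 5′ to 3′ on the gene's strand. Capitals mark a run of at least 5 bases that holds only C and T, opens with C and begins within 5 bases of the annotated start, and the motif TATAAA where it begins 20 to 40 bases before the start.
Snhg1, chr19:8723447-8723516, plus strand: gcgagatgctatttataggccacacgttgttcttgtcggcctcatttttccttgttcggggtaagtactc
Snhg3, chr4:132353657-132353726, minus strand: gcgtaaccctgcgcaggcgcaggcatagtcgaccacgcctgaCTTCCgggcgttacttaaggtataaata
Snhg5, chr9:88522868-88522937, minus strand: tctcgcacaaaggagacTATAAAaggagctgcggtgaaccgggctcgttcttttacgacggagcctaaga
Snhg7, chr2:26640215-26640284, minus strand: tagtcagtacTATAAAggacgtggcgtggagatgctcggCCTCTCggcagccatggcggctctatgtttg
Snhg12, chr4:132308638-132308707, plus strand: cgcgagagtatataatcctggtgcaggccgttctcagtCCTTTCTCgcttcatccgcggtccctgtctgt
Snhg8, chr3:123508307-123508376, minus strand: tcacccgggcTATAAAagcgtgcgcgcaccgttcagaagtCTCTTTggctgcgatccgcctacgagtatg
Gas5 first start, chr1:161034561-161034630, plus strand: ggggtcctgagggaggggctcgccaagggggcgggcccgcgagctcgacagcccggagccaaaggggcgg
Gas5 second start, chr1:161035126-161035195, plus strand: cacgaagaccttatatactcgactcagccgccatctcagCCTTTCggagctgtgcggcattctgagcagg

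A C/T run at the start was found in 5 of these 8 windows, those of Snhg3, Snhg7, Snhg8, Snhg12 and the second start of Gas5. Of all 32851 RefSeq start windows of the same length, 18.3% held one. The longest was the 8-base run of Snhg12, while that of Snhg3 had 5 bases. TATAAA, searched on the gene's strand in that stretch, was found for Snhg5, Snhg7 and Snhg8, which is 3 of 8 windows against 1.99% of all. Anywhere in the 300 bases of a promoter entry and on either strand, TATAAA was in 5 of the 8 against 13.6% of all. A match is a description of the letters, and a window without one says nothing of the factors that bind there.

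None of the 6 host genes passed the test between Hdac3-Isl1KO and Hdac3-flox/flox hearts (limma, adjusted over all genes, threshold 0.05). Over all genes 95 of 22180, or 0.428%, passed, 0.230% upward. At an unadjusted p under 0.05 the host count was 1, against 14.5% of all genes. On the log2 scale the differences, Hdac3-Isl1KO less Hdac3-flox/flox, ranged from -0.15 to 0.19, with 2 above and 4 below 0 and a median of -0.029, beside 9.4e-05 for all genes. The 6 95% intervals lay between -0.32 and 0.34, so changes beyond 1.25-fold down or 1.26-fold up fell outside them. All 6 rows had means above the 75th percentile of array rows, 7.34, so none was among the dim rows.

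Snhg6 had the smallest p of the 6. It read 10.23, 10.26 and 10.17 in the Hdac3-flox/flox arrays and 10.39, 10.41 and 10.42 in Hdac3-Isl1KO (log2 RMA values). Every Hdac3-Isl1KO array was above every control array. The difference was 0.19 (95% interval 0.036 to 0.34) with a limma adjusted p of 0.258, which missed the threshold. It passed when the variance prior followed the mean level (limma adjusted p = 0.0303, and 0.0297 with robust estimation), and its adjusted p ranged from 0.0297 to 0.496 over all settings.

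Snhg7 lay the other way. It stood at 9.12, 9.15 and 9.19 in Hdac3-flox/flox and at 9.04, 9.0 and 8.96 in Hdac3-Isl1KO, so these groups did not overlap either. Its difference was -0.15 (95% interval -0.31 to 0.00097, limma adjusted p = 0.348). Groups without overlap are frequent in this series, at 21.8% of all genes. The 2 such hosts, Snhg6 and Snhg7, pointed in opposite directions.

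The remaining 4 hosts overlapped between groups. Snhg1, which holds a row of C/D snoRNAs, read 10.18, 10.22 and 10.15 against 10.33, 10.20 and 10.05 in Hdac3-Isl1KO. Its Hdac3-Isl1KO arrays spread more (SD 0.14) than the controls (SD 0.04), and the difference was 0.011 (95% interval -0.20 to 0.22, limma adjusted p = 0.970). Snhg3, host of the H/ACA snoRNAs called U17 or Snora73, read 9.24, 9.36 and 9.19 against 9.25, 9.10 and 9.07. Its difference was -0.12 (95% interval -0.32 to 0.071, limma adjusted p = 0.544).

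Snhg5, host of the U50 snoRNAs, read 9.46, 9.20 and 9.52 in Hdac3-flox/flox and 9.49, 9.41 and 9.27 in Hdac3-Isl1KO. Replicate 2 was the low array of the controls, and the group means were equal to 2 decimals, at 9.39. Its difference was -0.0029 (95% interval -0.26 to 0.25, limma adjusted p = 0.994). Snhg12, which holds 4 snoRNA genes that were all measured, read 8.35, 8.47 and 8.38 against 8.35, 8.28 and 8.41, a difference of -0.056 (95% interval -0.23 to 0.11, limma adjusted p = 0.769). The signs of Snhg1 and Snhg5 turned with single arrays left out and under some other settings, so no direction is given for them.

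**Figure D1:**
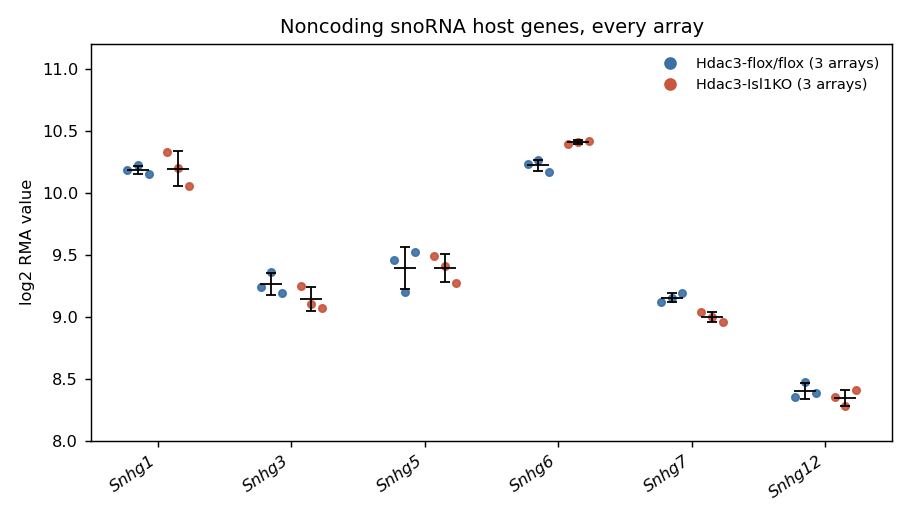
Log2 RMA values (vertical axis) of the 6 host genes, with each array as a point, the horizontal tick as the mean and the bar as the SD over 3 arrays. Snhg6 is higher and Snhg7 lower in every Hdac3-Isl1KO array, and the other 4 hosts overlap between groups. Heights are not comparable between genes, since each row has its own probes.

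The rows that name a host together with another gene did not pass either, in a limma fit over all rows with a symbol. The row for Gas5 and Mir5117 read 9.39, 9.60 and 9.29 in Hdac3-flox/flox and 9.39, 9.06 and 9.22 in Hdac3-Isl1KO, a difference of -0.20 (95% interval -0.48 to 0.08, limma adjusted p = 0.489). Gas5 is known as a host whose RNA accumulates in growth-arrested cells. The row for Snhg8 and Snora24 differed by -0.10 (95% interval -0.30 to 0.10, limma adjusted p = 0.656). For Snhg7 the annotation has 3 more rows, each named with an H/ACA snoRNA that lies inside it. The brighter row shared with Snora17 read 10.23, 10.35 and 10.30 against 10.03, 9.98 and 9.92, the groups were apart, and the difference was -0.32 (95% interval -0.49 to -0.15, limma adjusted p = 0.129). The other row shared with Snora17 differed by -0.18 and the row shared with Snora43 by -0.03. Signals of host and snoRNA cannot be told apart on such rows.

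Most snoRNA genes measured inside the hosts had lower values in Hdac3-Isl1KO. The RefSeq gene table places 28 snoRNA genes inside the spans of the 8 genes, and 9 of them had a row with 1 symbol, 4 of the C/D kind and 5 of the H/ACA kind. Of these 9, 2 fell and 0 rose (limma, adjusted over all genes), where 0.198% of all genes fell. At an unadjusted p under 0.05, 6 were lower and 0 higher, where 7.96% of all genes were lower. The median of the 9 was -0.38. Hdac3-Isl1KO was below the controls without overlap for 7 of 9, where 12.4% of all genes were. The 7 include Snora61, whose lowest control value was 8.79 and highest Hdac3-Isl1KO value 8.78 (difference -0.054). That snoRNA genes fall in these hearts was known from earlier results of the same arrays, so the counts are a description of which ones lie in these hosts.

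Snord99, a C/D snoRNA inside Snhg12, fell furthest of the 9. It read 10.28, 10.46 and 10.24 in Hdac3-flox/flox and 9.53, 9.62 and 9.40 in Hdac3-Isl1KO. The lowest control array was above the highest Hdac3-Isl1KO array. It was 1.76-fold lower, by -0.81 (95% interval -1.03 to -0.59, limma adjusted p = 0.0290). Snord87, the snoRNA of Snhg6, read 11.85, 12.05 and 11.81 against 11.26, 11.16 and 11.08. It was 1.66-fold lower, by -0.74 (95% interval -0.95 to -0.52, limma adjusted p = 0.0345), while its host had the largest positive difference of the 6.

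The other C/D snoRNAs missed the threshold. Snord47, inside Gas5, read 11.04, 11.28 and 10.94 against 10.40, 10.49 and 10.43, a difference of -0.64 (95% interval -0.88 to -0.41, limma adjusted p = 0.0572). Snord22, inside Snhg1, read 10.71, 11.06 and 10.67 against 9.93, 10.26 and 10.17, a difference of -0.69 (95% interval -1.01 to -0.37, limma adjusted p = 0.0978). The groups were apart for both genes. Snord47 passed under quantile normalization (limma adjusted p = 0.0450), and its adjusted p ranged from 0.000591 to 0.222 over all settings. That of Snord22 ranged from 0.00353 to 0.289. With any single array left out, 0 of the 9 snoRNA genes passed, Snord99 at -0.75 to -0.86 and Snord87 at -0.66 to -0.78.

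The 5 H/ACA snoRNAs had smaller differences, from -0.38 to 0.13, with a median of -0.054 against -0.71 for the 4 C/D snoRNAs, and 0 of them passed with limma (2 were lower at an unadjusted p under 0.05). Snora16a, inside Snhg12, read 9.90, 10.02 and 9.71 against 9.53, 9.55 and 9.41, a difference of -0.38 (95% interval -0.61 to -0.15, limma adjusted p = 0.176). Its neighbours in the same host, Snora44 and Snora61, differed by -0.20 and -0.054. All 3 were lower in every Hdac3-Isl1KO array than in any control array, as were 12.4% of all genes. The pair inside Snhg3, Snora73a and Snora73b, differed by 0.039 and 0.13 and overlapped between groups. Snora73a and Snora73b are close copies of each other, so probes may read them in common and their separate values are uncertain. Whether the C/D and the H/ACA snoRNAs of these hosts differ from each other was not tested.

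**Figure D2:**
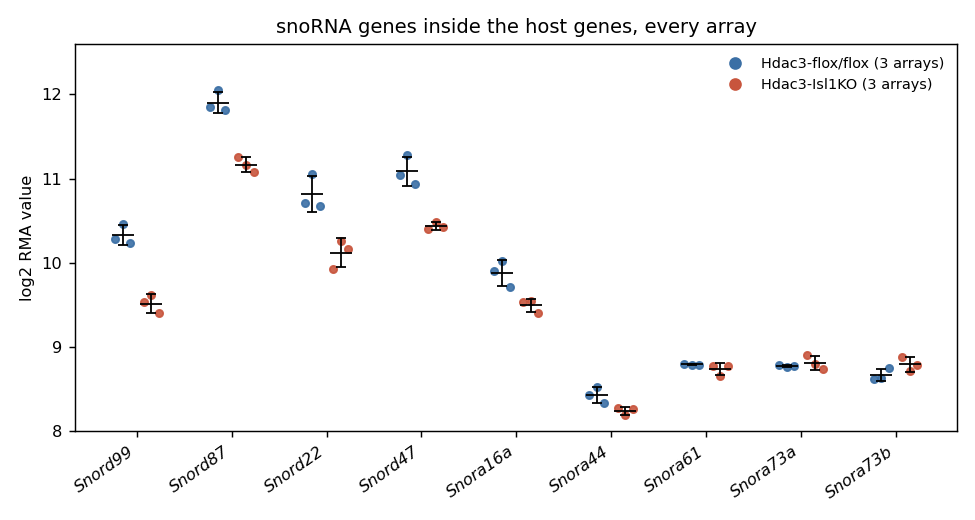
Log2 RMA values (vertical axis) of the 9 measured snoRNA genes inside the hosts, ordered by difference, with each array as a point, the tick as the mean and the bar as the SD over 3 arrays. The 4 Snord genes at the left, and Snora16a, Snora44 and Snora61 beside them, are lower in every Hdac3-Isl1KO array. Both Snora73 genes at the right overlap between groups.

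Each snoRNA was also set against its host within each array. Unspliced host RNA holds the snoRNA sequence too, so a snoRNA row may read it in part, which was not tested. For Snord87 less Snhg6 the log2 values were 1.62, 1.79 and 1.64 in Hdac3-flox/flox and 0.87, 0.75 and 0.66 in Hdac3-Isl1KO. That is a change of -0.92 between the groups, which stood apart. Snord99 less Snhg12 changed by -0.76, from 1.93 ± 0.06 to 1.17 ± 0.18 (SD, n = 3 arrays each), and Snord22 less Snhg1 changed by -0.70. Within Snhg12, Snora61 less its host changed by 0.0015 and its groups overlapped. Snora73b less Snhg3 went up by 0.25 and Snora73a less Snhg3 by 0.16, both without overlap. Of the 8 pairs with a measured host, 7 had groups that did not overlap, each with an exact two-sided permutation p of 0.10. With 3 arrays against 3 that is the smallest p the design can reach, so no pair can pass 0.05 by this test. Over all 65 snoRNA genes inside exactly 1 measured gene, which include these pairs except Snord87, the groups did not overlap for 69.2%, a share that was added after the values were seen. The pairs share hosts, since 4 lie in Snhg12 and 2 in Snhg3.

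Snhg12 has C/D and H/ACA snoRNAs side by side, all measured. Snord99 less Snora61 read 1.47, 1.66 and 1.45 in the controls and 0.75, 0.96 and 0.61 in Hdac3-Isl1KO. The change was -0.76 against Snora61, -0.62 against Snora44 and -0.43 against Snora16a (exact two-sided permutation p = 0.10 each, the smallest possible). These 3 comparisons were added after the values were seen. In the gene table Snord99 spans 56 bases, Snora61 62, Snora44 117 and Snora16a 136. The span given for Snora61 is the shortest of the entries with Snora symbols in these hosts, and whether it is complete was not checked. Whether length relates to the differences was not tested.

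**Figure D3:**
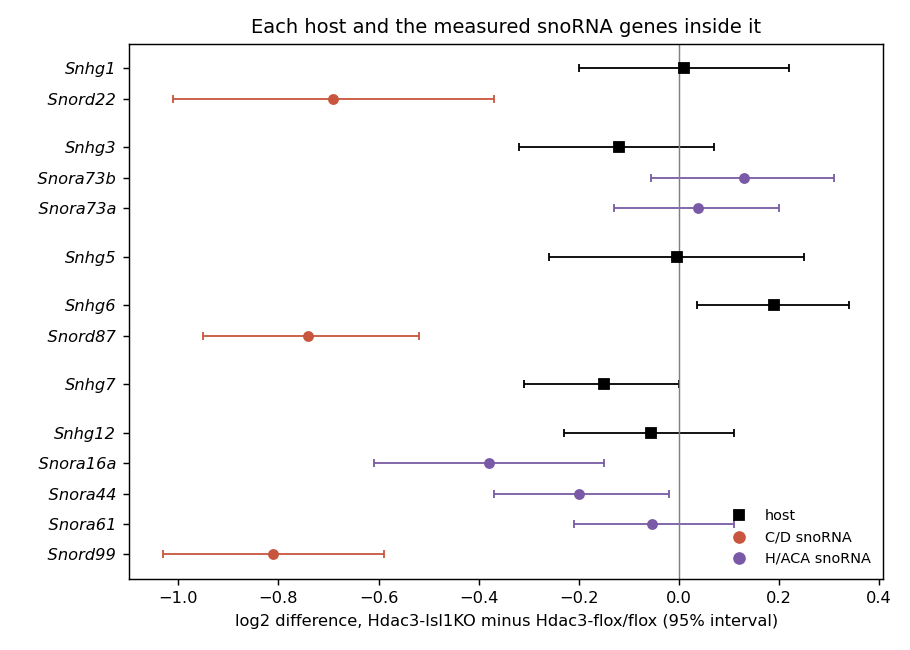
Horizontal axis, log2 difference of Hdac3-Isl1KO less Hdac3-flox/flox, for each host (squares) and the measured snoRNA genes inside it (circles), with 95% intervals from limma. The intervals of Snord22, Snord87 and Snord99 lie wholly below those of their hosts Snhg1, Snhg6 and Snhg12. Those of Snora16a, Snora44, Snora61 and both Snora73 genes overlap the intervals of their hosts. Snord47 is not drawn because its host Gas5 has no row of its own.

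The snoRNA genes elsewhere in the genome were mostly lower too. Of 71 such genes 11 fell and 0 rose (limma), where 0.198% of all genes fell, and the median was -0.38. The 42 with Snord symbols had a median of -0.57 and 10 that fell, where the 4 inside the noncoding hosts had -0.71. The 21 with Snora symbols had a median of -0.21 and 1 that fell, where the 5 inside the noncoding hosts had -0.054. Whether the snoRNAs of the noncoding hosts differ from the others was not tested. Protein-coding genes with a snoRNA gene inside their span numbered 333 and had a median of -0.018, where the noncoding hosts had -0.029. Of them 2 rose and 0 fell, Rps12, for a ribosomal protein (0.45, limma adjusted p = 0.0469), and Tomm20, for a mitochondrial import receptor (0.49, limma adjusted p = 0.0467), and with arrays centred on their medians 0 passed. The gene table gives no strand, so some of these genes may lie opposite to their snoRNA.

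Proteins of the snoRNA particles did not pass the test, and most values lay above 0. Of 7 measured core proteins of snoRNA particles 0 passed with limma, 5 were above 0, the median was 0.18, and 4 were higher at an unadjusted p under 0.05, as were 6.57% of all genes. These were Snu13, which binds the C/D snoRNA first (0.38, 95% interval 0.21 to 0.54, limma adjusted p = 0.0896, and 0.24 with its rows averaged), Nop58, of the C/D particle (0.18), and Nop10 and Nhp2, of the H/ACA particle (0.29 and 0.21). Of 13 genes listed for particle assembly 0 passed with limma, and 9 were above 0. At an unadjusted p under 0.05, 4 were higher, where 6.57% of all genes were. They were Znhit3 (0.48, limma adjusted p = 0.0572), Naf1 (0.37, and 0.23 without Hdac3-Isl1KO replicate 1), Tcof1 (0.27) and Ruvbl2 (0.15). The list is broad, and a place on it, as for Tcof1, does not show a direct part in assembly. Naf1 belongs to the machinery that builds H/ACA particles and Znhit3 to that for C/D particles, and the limma adjusted p of Znhit3 ranged from 0.00449 to 0.226 over all settings.

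Genes that act on the host RNA or on the freed intron were also without calls. Of 15 nonsense-mediated decay factors 0 passed with limma. The median was -0.026, and 2 were lower at an unadjusted p under 0.05, where 7.96% of all genes were. The lowest p was that of Eif4a3, the core helicase of the exon junction complex (-0.33, 95% interval -0.50 to -0.16, limma adjusted p = 0.121). Pnrc2 (-0.17), Upf2 (-0.13, and -0.084 under quantile normalization) and Nbas (-0.12, and -0.062) followed. Of 13 amino acid and stress response genes, several of them known targets of the same decay, 0 passed and 4 had an unadjusted limma p under 0.05, against 14.5% of all genes, with Atf3 (0.25) and Asns (0.17) higher and Phgdh (-0.24, and -0.15 without Hdac3-flox/flox replicate 1) and Slc3a2 (-0.18) lower. Of 16 genes for debranching and trimming introns 0 passed with limma, and 1, C1d, a cofactor of the nuclear exosome (0.36, adjusted p = 0.227), had an unadjusted p under 0.05. Exosc5 (0.16), Exosc2 (-0.16) and Mphosph6 (0.18, and 0.11 without Hdac3-Isl1KO replicate 1) came next.

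Of 18 genes listed for the control of TOP mRNAs 0 passed with limma. At an unadjusted p under 0.05 there were 2, against 14.5% of all genes, the translational repressor Tia1 (-0.35, 95% interval -0.52 to -0.18, adjusted p = 0.109) and Rps6 (0.19). Rps6 is itself a ribosomal protein gene and is counted again among those below. Tial1 (-0.16) and Larp1 (0.16), which binds the TOP tract, came next. Cytosolic ribosomal protein genes (Rpl and Rps symbols), which are known for the same tract, had a median of 0.22 over 63 genes. Of the 63, 54 were above 0 and 5 rose, where 0.230% of all genes rose. The noncoding hosts had 2 of 6 above 0. No test was made of that difference. Of 13 other noncoding hosts 0 passed with limma. At an unadjusted p under 0.05 there were 2, a share near the 14.5% of all genes: Zfas1, which hosts C/D snoRNAs (-0.47, 95% interval -0.72 to -0.22, adjusted p = 0.141, and -0.26 with its rows averaged), and Snhg20 (-0.16). Their median was -0.067. Meg3 (0.27, and 0.15 without Hdac3-Isl1KO replicate 3) and Snhg14 (-0.26, and -0.16 without Hdac3-flox/flox replicate 2), both imprinted transcripts, came next.

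**Figure D4:**
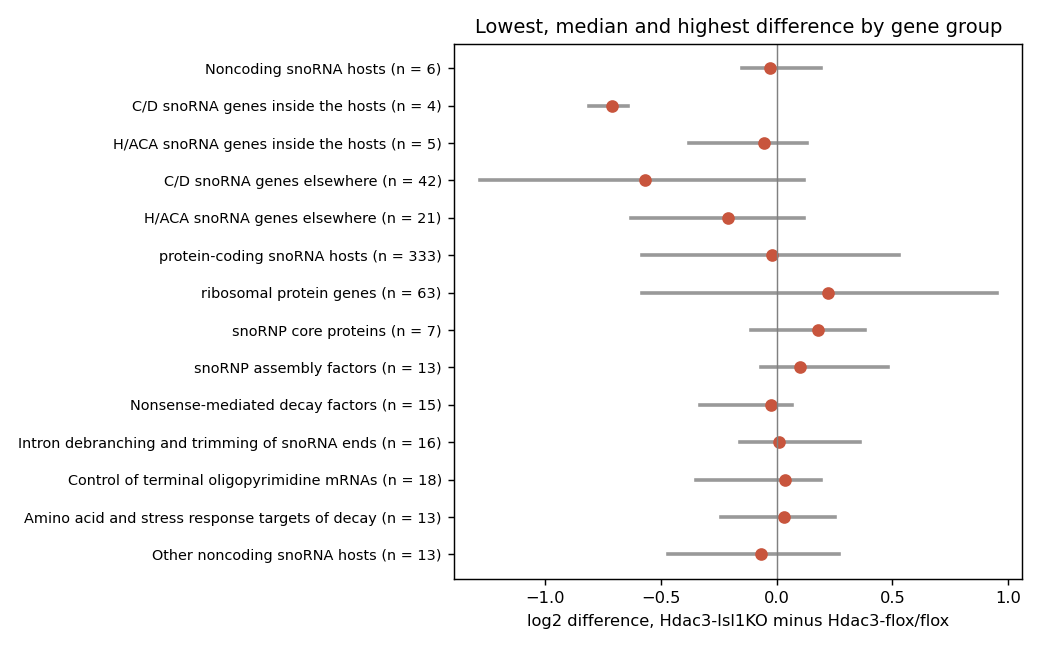
Lowest, median (circle) and highest log2 difference of Hdac3-Isl1KO less Hdac3-flox/flox (horizontal axis), for each gene group, with the number measured. The 6 noncoding hosts centre on -0.029 and the protein-coding hosts on -0.018, while C/D snoRNA genes centre on -0.71 inside the hosts and -0.57 elsewhere.

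Among 12474 genes at or above the median row level, the array profiles most like the mean of the 6 hosts were those of Cenpc1 (Pearson r = 0.990 over 6 arrays), Timp2 (0.988), Pum2 (0.988), Prdx4 (0.982) and Knl1 (0.980). In all, 153 genes had an r over 0.9. With 6 arrays such values are a description, and the mean profile itself moved little, from -0.062 to 0.052 around its own mean.

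Several facts of the arrays bear on these values. Hdac3 stood at 9.67, 9.73 and 9.64 in Hdac3-flox/flox and at 9.11, 9.20 and 9.31 in Hdac3-Isl1KO (-0.47, limma adjusted p = 0.0636), and the position of its probes relative to the loxP sites is unknown. Correlations between arrays lay between 0.980 and 0.989. Defining markers of heart muscle were bright, with mean levels of 11.62 to 11.72 per array and 0 of 8 called. Of the 8, 7 were below 0 (median -0.10), as were 11087 of all 22180 genes. Without overlap between groups, 6 of the 8 were lower and 1 higher in Hdac3-Isl1KO, where 12.4% and 9.41% of all genes were. Of 7 trophoblast markers 4 rose, against 0.230% of all genes, and the mean level of the 7 was 5.77 to 6.04 in controls and 6.74 to 6.82 in Hdac3-Isl1KO. Of 9 hepatic and yolk sac markers 1 rose (5.36 to 5.54 against 5.83 to 5.88). Of 8 pharyngeal epithelium markers 0 passed, while 8 were above 0 (5.95 to 6.00 against 6.33 to 6.37). At an unadjusted limma p under 0.05, 7 of these 8 were higher, against 6.57% of all genes. Of 8 epicardial markers 3 fell (8.01 to 8.10 against 7.55 to 7.58), where 0.198% of all genes did. Of 8 endocardial (8.87 to 8.93 against 8.85 to 8.88) and 6 erythroid markers (9.16 to 9.21 against 9.15 to 9.22) 0 passed. The trophoblast, hepatic and epicardial markers that passed, and the pharyngeal markers that were higher, differ between the same groups as the snoRNAs. The part of these markers in the fall of the snoRNAs was not tested. In pooled tissue, fewer cells of a type and less RNA per cell cannot be told apart.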

How the data were processed

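Gene expression in 6 pools of hearts was measured on Affymetrix arrays. Values deposited by the authors are on the log2 scale. The submitters' processing notes name oligo and RMA, a method of background correction, quantile normalization and probe summary. Their versions and the genome build were not given in the sources used here. Per the labels' protocols, biotin-labelled cDNA was made from 100 ng of total RNA. No separate detection calls or scan batches were used here.

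The platform annotation named the rows: of 41345, 23521 had 1 symbol, 1814 several and 16010 none listed. Of a gene's rows the brightest was used, giving 22180 genes, of which 21994 matched RefSeq (GRCm38.p6) by gene number. That table placed snoRNA genes inside hosts by position, without strand. The test was limma 3.58.1 in R 4.3.3 (lmFit, eBayes, constant prior, two-sided, 6.92 degrees of freedom), adjusted by Benjamini-Hochberg over all genes. Each difference is Hdac3-Isl1KO less Hdac3-flox/flox. The steps were tested on simulated data. Figures used matplotlib 3.10.9 in Python 3.11.15.

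The members, gene lists and tests were chosen with earlier results of these data known. Named genes were all members with every row, Hdac3, the snoRNA genes inside members, the 4 smallest p-values of each pathway list, called markers, and the 5 genes most like the mean of the members. Rps12 and Tomm20 were chosen once their values had been seen. The same rule asked for genes like Gas5, which has no row of its own. Other settings tried were each array left out, a replicate block, and other normalizations, filters, row rules, priors, weights and thresholds. Tests of snoRNA less host were added after the data were seen.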

Additional observations from a re-analysis of the deposited data

How the results depend on the processing

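The count of host genes called was 0 in all settings but the trended prior, where it was 1 (Snhg6), with and without robust estimation. The hosts' median, -0.029, was -0.076 with rows of several symbols added, -0.0028 under quantile normalization, and -0.057 to -0.016 with single arrays left out. Of the 9 snoRNA genes inside hosts (2 called), 0 were called with any array left out, 4 without genes below the median row, 5 with the trended prior in either form, and 4 at a threshold of 0.1, with a median of -0.46 to -0.30 with arrays left out. Protein-coding hosts called (2) were 0 with any array left out or with arrays centred, 13 above the median row, 22 and 23 with the trended prior without and with robust estimation, 4 with array weights and 6 at a threshold of 0.1, and their median was 0.0036 under quantile normalization. Pathway list genes called (0) were 1 under quantile normalization and with array weights, 2 above the 25th percentile row, 6 above the median row, 7 with the trended prior in either form and 2 at 0.1. All genes called (95) were 2 to 25 with an array left out, 149 under quantile normalization, 235 above the 25th percentile row, 617 above the median row, 866 with the trended prior in either form, 243 with array weights and 317 at 0.1. Filtering changes both the genes adjusted over and those that set the variance prior. The cause of these shifts was not tested.

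Replicate numbers are shared by the groups, but same-numbered arrays did not deviate together (correlations -0.01, -0.09 and 0.04). The labels do not say whether same-numbered pools were paired. With the replicate block 0 genes were called in all, and 0 of the snoRNA genes and protein-coding hosts. Signs turned for Snhg5 (0.017 under quantile normalization, -0.10 to 0.062 with arrays left out), Snhg1 (-0.003 with array weights, -0.058 to 0.085 with arrays left out), Snora73a (-0.0037 to 0.076 with arrays left out) and Isl1, whose main difference was -0.03 (0.026 under quantile normalization, -0.10 to 0.058 with arrays left out). Some uncalled differences kept their sign and moved by over 1.5 times: Snhg3 (-0.12) was -0.076 without Hdac3-flox/flox replicate 2, and Snhg12 (-0.056) was -0.019 without that array, -0.024 and -0.087 without Hdac3-Isl1KO replicates 2 and 3, and -0.017 under quantile normalization. Snora73b (0.13) was 0.083 without Hdac3-Isl1KO replicate 1, and Snora61 (-0.054) was -0.013 without Hdac3-Isl1KO replicate 2 and -0.028 under quantile normalization.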

Other observations

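The RefSeq table lists snoRNA genes in the noncoding hosts that are not matched to an array row by symbol: 7 of 8 inside Gas5, 7 of 8 inside Snhg1 and both inside Snhg5. The values above for the snoRNAs of Gas5 and Snhg1 therefore rest on Snord47 and Snord22 alone.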
